A study of Mus musculus with 12 samples.

Results

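The 10 genes described here mark fat cells: Adipoq, Lep, Retn and Cfd, whose products adipocytes secrete, Plin1, Plin4 and Cidec, whose proteins coat or enlarge the lipid droplet, and Pparg, Fabp4 and Lipe, which encode a transcription factor, a fatty acid carrier and a lipase. They were taken by symbol from a list of adipocyte genes, and all 10 were among the 55487 gene identifiers of the count table. Bulk RNA sequencing measured them in 12 mouse melanoma tumors. Arf6 was removed in 6 tumors (genotype BrafCA;Cdkn2af/f;Arf6f/f, here Arf6-null) and left intact in 6 tumors (genotype BrafCA;Cdkn2af/f, here wild type), and the BrafCA allele and the floxed Cdkn2a alleles are common to both groups. The Cre driver, tumor site, sex, age and any other treatment were left unstated by the labels. The comparison asks how the RNA content of the tumor differs once Arf6, a small GTPase of membrane traffic, is lost.

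A white adipocyte stores triglyceride in a single large droplet. PPAR gamma, together with C/EBP factors, drives the differentiation of the cell and the transcription of most genes of the stored-fat program. Perilipins cover the droplet and hold lipases back until a hormonal signal releases them, and the cell secretes hormones such as leptin and adiponectin in step with its fat content. Skin and the tissue beneath it hold adipocytes, so a tumor grown there can border on or enclose them. Several of the 10 genes are not limited to fat cells: Fabp4 is also expressed by macrophages and capillary endothelium, Pparg by macrophages and sebaceous glands, and Plin4 by skeletal muscle.

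The stretches before the start sites of the adiponectin and leptin genes are shown. Of the 13 member promoters searched, these held the most copies of the CCAAT box and the single copy of the C/EBP palindrome. Both sequences are the 250 bases before the start, 5′ to 3′ along the gene, from RefSeq (build GRCm38.p6, plus strand), with the matched letters in capitals. The Adipoq stretch is chr16:23146286-23146535 and the Lep stretch is chr6:29059971-29060220.
Adipoq: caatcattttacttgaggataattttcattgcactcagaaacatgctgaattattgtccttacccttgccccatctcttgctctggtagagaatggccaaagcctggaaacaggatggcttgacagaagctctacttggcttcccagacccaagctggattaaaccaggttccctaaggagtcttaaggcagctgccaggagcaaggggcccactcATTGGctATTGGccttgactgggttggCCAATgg
Lep: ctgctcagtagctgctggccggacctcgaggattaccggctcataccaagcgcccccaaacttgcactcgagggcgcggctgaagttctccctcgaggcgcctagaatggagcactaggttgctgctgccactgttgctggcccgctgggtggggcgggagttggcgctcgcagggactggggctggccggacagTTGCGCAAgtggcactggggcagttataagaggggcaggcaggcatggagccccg
In Adipoq the letters CCAAT, searched on both strands, occurred 3 times, ending 30, 23 and 3 bases before the start. In Lep the letters TTGCGCAA, a palindrome that C/EBP factors bind, occurred once, ending 48 bases before the start. Of 13 promoters of 9 matched members, 4 held CCAAT, from 3 members (Adipoq, Plin4 and Pparg), and 1 held TTGCGCAA, from Lep. Over all 32851 promoters of that length the shares were 33.8% and 0.164%. The direct repeat to which PPAR gamma binds with RXR, spelled as AGGTCA, any base and AGGTCA again, was found in 0 of the 13 and in 0.0335% of all promoters. The 3 searches use letters that do not contain each other. Fabp4 had no entry in the promoter table.

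Libraries held 21007954 to 45688253 counts in Arf6-null tumors and 22211738 to 30326419 in wild-type tumors. The library numbers of the genotypes are separate (19 to 24 for Arf6-null, 1 to 6 for wild type), so any difference in handling that follows these numbers and the genotype cannot be told apart. Arf6 itself was at 12.2 to 22.5 CPM in Arf6-null tumors and at 84.2 to 147 CPM in wild-type tumors, with no overlap. CPM here are counts normalised to library size with the trimmed mean of M values. The labelled tissue is melanoma. Of the melanocyte genes Mlana had 0 counts in all 12 libraries, Tyr at most 2 and Dct at most 1. Pmel had 21 to 50 counts in Arf6-null and 10 to 39 in wild-type libraries, Sox10 had 1 to 22 and 0 to 33, and Mitf was at 8.95 to 30.1 CPM in Arf6-null and 10.1 to 28.3 CPM in wild-type tumors.

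None of the 10 adipocyte genes passed the test between genotypes, and in none of them were the groups free of overlap, as they were for 2.36% of all tested genes. Adipoq, Plin1, Plin4, Cfd and Cidec were highest in 4 of the 6 wild-type libraries, replicates 3 to 6, where Cfd reached 35.7 CPM and Plin1 1.63 CPM. In Arf6-null tumors the highest levels of these 5 genes lay between 0.157 CPM, for Plin1, and 5.93 CPM, for Cfd. The log2 fold changes of Pparg, Fabp4 and Lipe were -0.14, -0.42 and -0.06. Of the 10 members, 7 had enough counts to be tested by edgeR's quasi-likelihood test and 0 of them were called at an adjusted p under 0.05, against 1.15% of all 16225 tested genes. At an unadjusted p under 0.05, 3 of the 7 were lower in Arf6-null tumors, against 12.4% of all tested genes. limma-voom called 0 of the 7 (5.74% of all tested genes), and edgeR without a filter called 0 of all 10 (0.381%), with 5 at an unadjusted p under 0.05 (8.53% for the lower direction). DESeq2 called 5 of 10, all lower in Arf6-null tumors, against 11.8% of all genes in either direction and 6.63% in the lower one. Replicate numbers only name the tumors. Wild-type tumors are described as matched in the design text, but with no pairs in the labels the test is unpaired. Whether each tumor is from its own mouse is unstated, and the p-values cover no more than tumor-to-tumor spread. In bulk RNA, fewer adipocytes and less of these RNAs per adipocyte cannot be told apart.

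**Figure D1:**
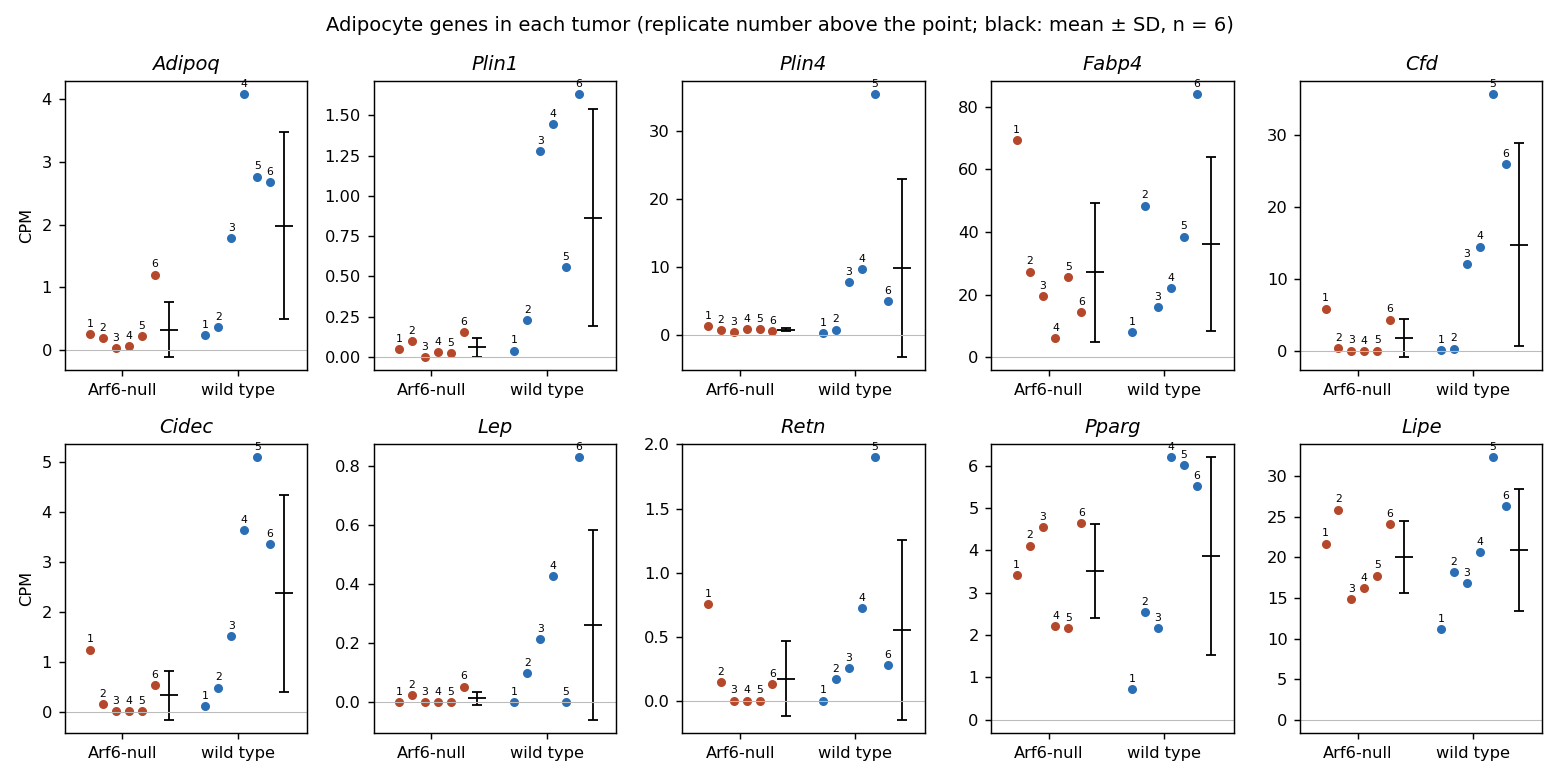
CPM of each adipocyte gene (vertical axes, linear, each with its own scale) in 6 Arf6-null and 6 wild-type tumors. Points are tumors with their replicate number, and black marks are the mean ± SD (n = 6). Wild-type replicates 1 and 2 lie with the Arf6-null tumors for Adipoq, Plin4, Cfd and Cidec, while for Pparg and Lipe the Arf6-null tumors lie inside the wider wild-type range.

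Among the secreted products, Adipoq (ENSMUSG00000022878, chromosome 16, 23146536 to 23158028, plus strand of GRCm38) encodes adiponectin, a hormone made almost only by adipocytes. It was at 0.0297 CPM in the lowest, 0.210 in the median and 1.20 in the highest Arf6-null tumor, against 0.239, 2.23 and 4.07 CPM in wild-type tumors. Wild-type replicates 3, 4, 5 and 6 stood above every Arf6-null tumor, and wild-type replicates 1 and 2 lay inside the Arf6-null range. The means were 0.328 ± 0.437 and 1.98 ± 1.49 CPM in Arf6-null and wild-type tumors (SD, n = 6 each), and the log2 fold change of -2.56 had an SE of 0.86 (adjusted p = 0.112 in edgeR and 0.0213 in DESeq2). Arf6-null replicate 6, with 46 of the 72 Adipoq counts of its group, was the highest of its group. Without it the log2 fold change was -3.67 and the edgeR adjusted p was 0.0375.

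Cfd (chromosome 10, 79890853 to 79892655) encodes complement factor D, or adipsin, the serine protease that starts the alternative complement pathway and is secreted by mouse fat. It had the largest span of the tested members. Its level was 0.0330 CPM in the lowest, 0.263 in the median and 5.93 in the highest Arf6-null tumor, against 0.159, 13.3 and 35.7 CPM in wild-type tumors. Again replicates 3 to 6 of the wild type exceeded every Arf6-null tumor, and replicates 1 and 2, at 4 and 11 counts, did not. The log2 fold change of -3.04 had an SE of 1.41 (adjusted p = 0.216 in edgeR and 0.0771 in DESeq2). Without Arf6-null replicate 1 the log2 fold change was -3.86.

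Lep (chromosome 6, 29060220 to 29073877), whose product leptin reports fat stores to the brain, was close to the detection limit. It had 3 counts over the 6 Arf6-null libraries, of which 4 had none, against 45 counts over the 6 wild-type libraries, of which 2 had none. The ratio of Arf6-null to wild type, scaled to library size, was 0.0529 (exact 95% interval 0.0105 to 0.165, counting error only). The highest level was 0.0523 CPM in an Arf6-null tumor and 0.833 CPM in a wild-type tumor, replicate 6. Wild-type replicate 5 had 0 Lep counts although it held 74 counts of Adipoq and 957 of Cfd. Lep did not reach the filter on low counts. Without that filter its log2 fold change of -3.85 had an SE of 1.12 (adjusted p = 0.118 in edgeR), and DESeq2 gave an adjusted p of 0.0435. It was -4.74 without Arf6-null replicate 6 and -3.07 without wild-type replicate 6.

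Retn (chromosome 8, 3655770 to 3660110) encodes resistin, which mouse adipocytes secrete. It had 26 counts over the Arf6-null and 92 over the wild-type libraries, with 3 and 1 libraries at 0. Of the wild-type counts 51 came from replicate 5, and of the Arf6-null counts 15 came from replicate 1, at 0.753 CPM, which was above all wild-type tumors but replicate 5. Without a filter the log2 fold change of -1.82 had an SE of 1.18 (adjusted p = 0.463 in edgeR and 0.423 in DESeq2). It was -3.17 without Arf6-null replicate 1, -0.89 without wild-type replicate 5 and 0.05 without wild-type replicates 3, 4 and 5, so its sign rests on those 3.

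Of the lipid droplet genes, Plin1 (chromosome 7, 79720218 to 79732903) encodes perilipin 1, the adipocyte droplet coat that controls access of lipases. It was at 0, 0.0416 and 0.157 CPM in the lowest, median and highest Arf6-null tumor, against 0.0398, 0.919 and 1.63 CPM in wild-type tumors. Of the wild-type tumors 5 exceeded every Arf6-null tumor, more than for any other member. With 13 counts over the Arf6-null and 144 over the wild-type libraries it did not reach the filter. Without the filter the log2 fold change of -3.69 had an SE of 0.82 (adjusted p = 0.0669 in edgeR and 0.000567 in DESeq2). Leaving out Arf6-null replicate 6 or wild-type replicate 2 brought the edgeR adjusted p to 0.0430 and 0.0379.

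Plin4 (chromosome 17, 56100591 to 56109803) encodes perilipin 4, which coats small droplets in adipocytes and muscle. The 6 Arf6-null tumors lay close together, at 0.475 CPM in the lowest, 0.816 in the median and 1.31 in the highest, against 0.318, 6.40 and 35.5 CPM in wild-type tumors. Wild-type replicate 5 alone held 950 of the 1605 wild-type counts, and replicates 1 and 2, at 0.318 and 0.794 CPM, were below the highest Arf6-null tumor. The log2 fold change of -3.59 had an SE of 0.92 (adjusted p = 0.0629 in edgeR and 0.000395 in DESeq2). Without wild-type replicate 2 the edgeR adjusted p was 0.0344, without wild-type replicate 5 the log2 fold change was -2.53 (edgeR adjusted p = 0.0721), and over all 12 fits that leave out 1 library the adjusted p reached 0.127. An exon of Hdgfl2 on the other strand shares 17 bases with Plin4.

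Cidec (chromosome 6, 113424634 to 113435760) encodes the protein that fuses droplets into large ones. It was at 0.0226, 0.101 and 1.256 CPM in the lowest, median and highest Arf6-null tumor, against 0.119, 2.45 and 5.11 CPM in wild-type tumors. Wild-type replicates 3 to 6 were above every Arf6-null tumor, and Arf6-null replicates 1 and 6 were above wild-type replicates 1 and 2. The log2 fold change of -2.87 had an SE of 1.05 (adjusted p = 0.136 in edgeR and 0.0374 in DESeq2). Leaving out Arf6-null replicate 1 moved the log2 fold change to -3.84.

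The regulator, the carrier and the lipase had smaller fold changes. Pparg (chromosome 6, 115360951 to 115490399) was at 2.17, 3.76 and 4.65 CPM in the lowest, median and highest Arf6-null tumor, against 0.716, 4.03 and 6.21 CPM in wild-type tumors, so the Arf6-null values lay wholly inside the wild-type range. Its log2 fold change of -0.14 had an SE of 0.46 (adjusted p = 0.883 in edgeR). Arf6-null replicates 1 to 5, with 5, 8, 1, 2 and 10 counts of Adipoq, had 68, 170, 153, 67 and 96 counts of Pparg. Wild-type replicate 1, with 6 counts of Adipoq, had 18 counts of Pparg, the lowest Pparg level of all tumors. Pparg RNA was thus present in tumors in which adiponectin RNA was nearly missing.

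Fabp4 (chromosome 3, 10204088 to 10208576) was at 6.17, 22.5 and 69.4 CPM in the lowest, median and highest Arf6-null tumor, against 7.99, 30.2 and 84.1 CPM in wild-type tumors. The log2 fold change of -0.42 had an SE of 0.61 (adjusted p = 0.71 in edgeR). Fabp4 had 12 to 653 counts for each count of Adipoq in Arf6-null libraries and 5.39 to 133 in wild-type libraries. The ratio of 653, in Arf6-null replicate 3, rests on 1 count of Adipoq. Arf6-null replicate 1 had the second highest Fabp4 level of the 12 tumors with only 5 counts of Adipoq. Summed over 10 macrophage markers the level was 1514 to 2535 CPM in Arf6-null and 1296 to 3816 CPM in wild-type tumors, and over 7 capillary endothelial markers 93.7 to 370 and 172 to 400 CPM. Their part in the Fabp4 level was not tested.

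Lipe (chromosome 7, 25379527 to 25398710) encodes hormone-sensitive lipase, which splits diglyceride during fat release. It was the steadiest member, at 14.8, 19.7 and 25.9 CPM in the lowest, median and highest Arf6-null tumor, against 11.1, 19.4 and 32.4 CPM in wild-type tumors. The log2 fold change of -0.06 had an SE of 0.24 (adjusted p = 0.903 in edgeR). Its exons share 918 bases with the antisense gene 4732471J01Rik, and the strand setting of the counter is not given in the sources used here, so reads of that RNA may be included. The highest tumor had 2.91 times the Lipe level of the lowest over all 12 tumors, against 8.68 times for Pparg, 13.6 times for Fabp4, 111 times for Plin4, 137 times for Adipoq and 1082 times for Cfd.

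All 7 tested members had a negative log2 fold change, against 52.8% of all tested genes. For Pparg, Fabp4 and Lipe the change was smaller than its SE, and its sign turned under some alternative processing given below. Across the tested members the median log2 fold change was -2.56, against -0.03 over all tested genes, and with all 10 members in the fit without a filter it was -2.68, against -0.05. A log2 fold change below -2 was seen in 4 of the 7 tested members and in 2.16% of all tested genes. At least 4 wild-type libraries exceeded every Arf6-null library for 6 of the 10 members, against 11.2% of tested genes. The 6 include Plin1 and Lep, which did not reach the filter that the tested genes passed. These counts describe the list, whose members were chosen with earlier results of these data known.

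**Figure D2:**
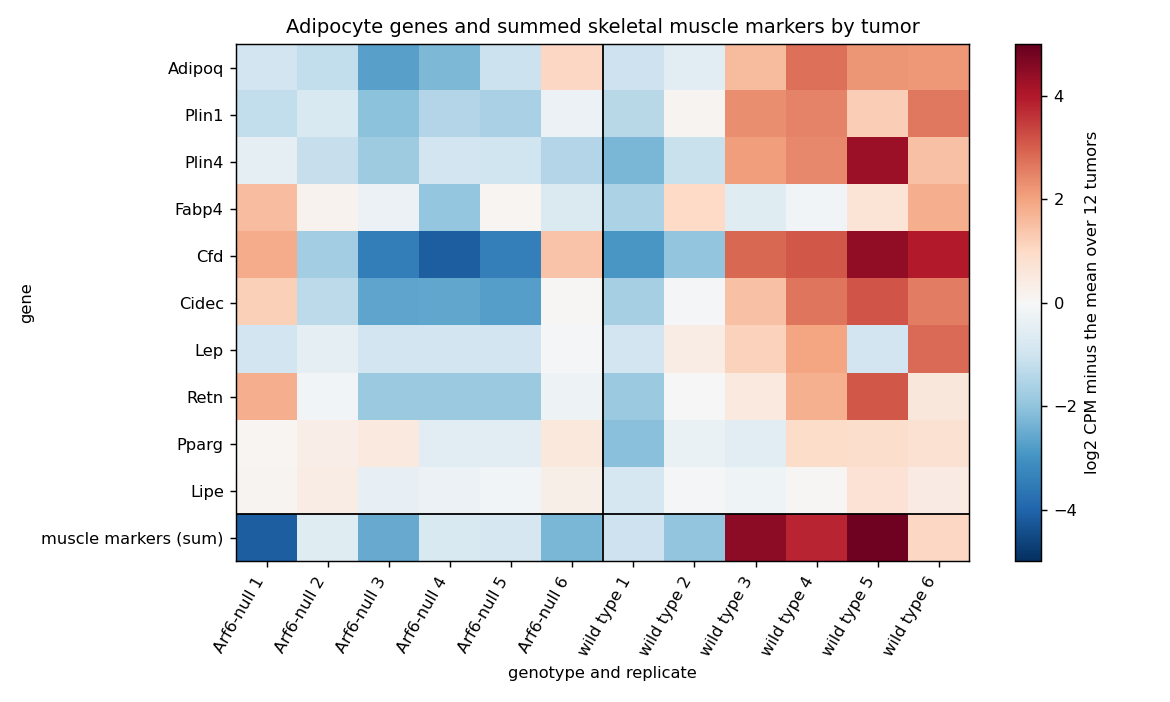
Level of each adipocyte gene (rows) in each tumor (columns, Arf6-null left and wild type right), as log2 CPM minus the mean of the row over 12 tumors. The lowest row is the log2 of the summed CPM of 10 skeletal muscle markers plus 1, centred likewise. Wild-type replicates 3 to 6 are red for Adipoq, Plin1, Plin4, Cfd and Cidec, and only replicates 3 to 5 are deep red for muscle.

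The libraries were not ranked alike by all members. The highest of the 12 tumors was wild-type replicate 5 for 5 members (Plin4, Cfd, Cidec, Retn and Lipe), replicate 6 for 3 (Plin1, Fabp4 and Lep) and replicate 4 for 2 (Adipoq and Pparg). Wild-type replicate 1 was the lowest of its group for all 10 members, tied at 0 with replicate 5 for Lep. Among Arf6-null tumors replicate 1 was highest for 5 members (Plin4, Fabp4, Cfd, Cidec and Retn) and replicate 6 for 4 (Adipoq, Plin1, Lep and Pparg). In Arf6-null replicate 1 there were 118 counts of Cfd and 25 of Cidec beside 5 of Adipoq and 1 of Plin1, 23.6 counts of Cfd for each count of Adipoq. In the wild-type libraries that ratio was between 0.667, from 4 counts of Cfd and 6 of Adipoq, and 12.9. Ratios on so few counts are uncertain. On larger counts it was 3.56 in wild-type replicate 4 (442 and 124 counts) and 12.9 in replicate 5 (957 and 74 counts). Cfd and Adipoq, both known from adipocytes, therefore did not keep a fixed ratio from tumor to tumor.

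Skeletal muscle markers were high in some of the same tumors. The sum of 10 muscle markers was 5.12 to 70.0 CPM in Arf6-null tumors, and in wild-type tumors it was 2363, 1477 and 3079 CPM in replicates 3, 4 and 5, 218 CPM in replicate 6, and 51.8 and 26.2 CPM in replicates 1 and 2. The part of muscle tissue in the adipocyte values was not tested beyond the fits given next. All 10 muscle markers were lower in Arf6-null tumors at an unadjusted p under 0.05 in edgeR (12.4% of all tested genes) and all 10 were called lower by DESeq2 (6.63%). By edgeR's adjusted p 1 passed (1.15%): Pvalb, the calcium buffer of fast muscle fibres, at 0.170 ± 0.152 CPM in Arf6-null and 25.7 ± 37.3 CPM in wild-type tumors (SD, n = 6 each; adjusted p = 0.0392 in edgeR). Pvalb was called in 3 of the 12 fits that leave out 1 library. Wild-type replicate 6 had 2.67 CPM of Adipoq, 26.1 CPM of Cfd and 1.63 CPM of Plin1, each above replicate 3. Plin4 went the other way, at 4.995 CPM in replicate 6 and 7.80 CPM in replicate 3. Adipoq was higher in replicates 4 and 5 than in replicate 6. The muscle marker sum of replicate 6, 218 CPM, was below that of replicate 3 but above that of every Arf6-null tumor. For Plin4, replicate 5 had 12.8 counts of Plin4 for each count of Adipoq and replicate 6 had 1.87.

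**Figure D3:**
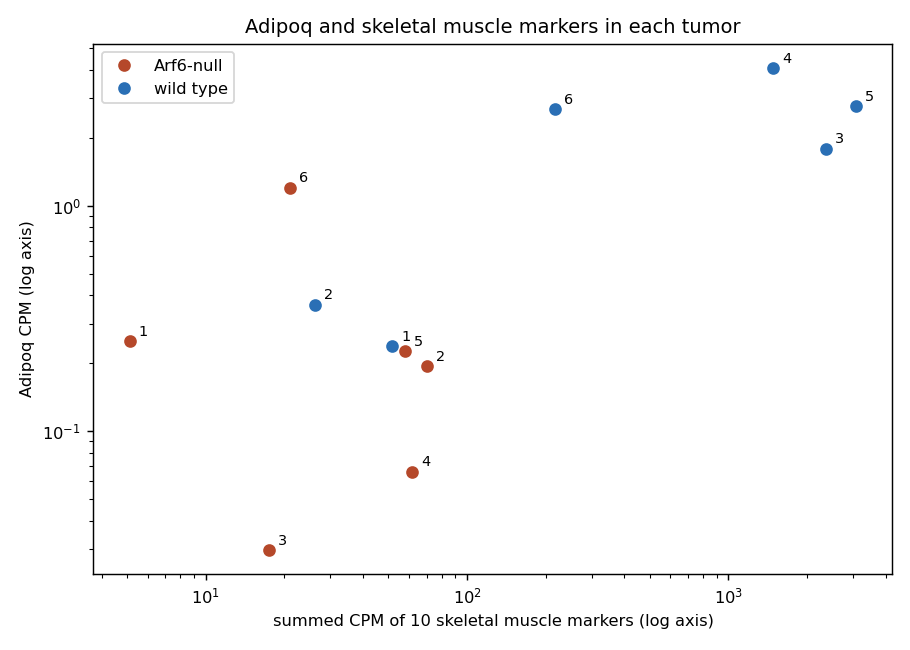
Adipoq CPM (vertical, log axis) against the summed CPM of 10 skeletal muscle markers (horizontal, log axis) in 12 tumors, numbered by replicate. Wild-type replicates 3, 4 and 5 are high on both axes, wild-type replicate 6 is high in Adipoq at 218 CPM of muscle markers, and Arf6-null replicate 6 has 1.20 CPM of Adipoq at 21 CPM of muscle markers.

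With the mean log2 CPM of the muscle markers as a covariate, the log2 fold change of Plin4 was -0.28 (SE 1.03) and that of Adipoq -1.04 (SE 1.28), against -3.59 and -2.56 without it. Retn was at -0.47 (SE 2.04), against -1.82, and Fabp4 at -1.28 (SE 0.87), against -0.42. Cidec, Cfd, Plin1 and Lep were at -2.19, -2.27, -2.50 and -3.71 (SE 1.87, 2.99, 1.04 and 1.51). Without wild-type replicates 3, 4 and 5, Plin4 was at -1.31, Adipoq at -1.69, Cidec at -2.02, Cfd at -2.29, Plin1 at -3.26 and Lep at -4.10. No member was called by edgeR in either fit, and the smallest adjusted p in these fits was 0.261, for Lep. Plin1, Lep and Retn are given from the fits without a filter. In the fit without wild-type replicates 3, 4 and 5, wild-type replicates 1, 2 and 6 had 1, 7 and 47 counts of Plin1. For Lep they had 0, 3 and 24 counts, so both values rest mostly on replicate 6.

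**Figure D4:**
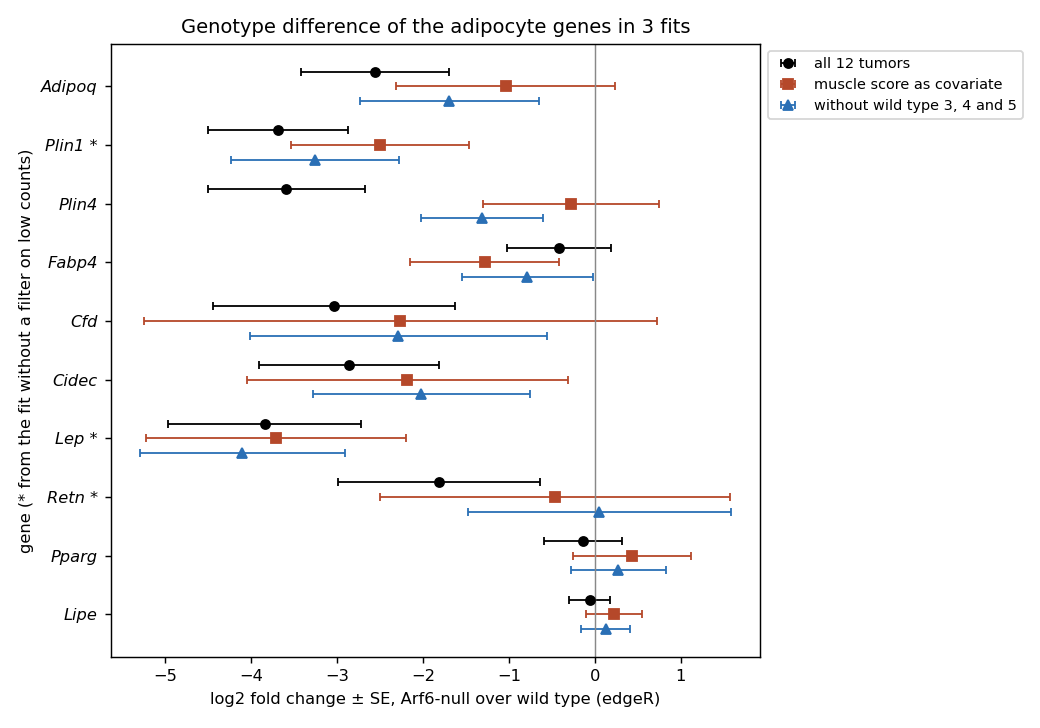
Log2 fold change of each adipocyte gene, Arf6-null over wild type, with its SE (horizontal axis) in 3 edgeR fits: all 12 tumors, the muscle score as a covariate, and without wild-type replicates 3, 4 and 5. Plin4 moves from -3.59 to -0.28 with the covariate, while Plin1 and Lep are at -2.50 or below in all 3 fits. Without wild-type replicates 3, 4 and 5, most wild-type counts of Plin1 and Lep come from replicate 6.

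Xist RNA and some keratinocyte markers differed between tumors as well. Xist, the RNA of the inactive X chromosome, was at 689 CPM in Arf6-null replicate 6 and at 1345, 657 and 1059 CPM in wild-type replicates 3, 5 and 6, but not above 0.768 CPM in the other tumors. The Arf6-null tumor with the highest Adipoq is thus the one with Xist, while the wild-type tumor with the highest Adipoq, replicate 4, was at 0.460 CPM. With Y-linked expression as a covariate Adipoq had a log2 fold change of -2.50, Plin4 of -2.91 and Cfd of -2.28. Summed over 6 keratinocyte markers, Arf6-null replicate 6 had 21.3 CPM, against 2.90 to 4.67 CPM in the other Arf6-null tumors and 2.45 to 5.28 CPM in wild-type tumors. Krt14 (12.6 CPM) and Krt5 (3.84 CPM) were highest in Arf6-null replicate 6. Krt1, Krt10 and Lor were highest in other tumors, and Flg had 0 counts in both groups. The part of the keratinocyte sum in the Adipoq level of Arf6-null replicate 6 was not tested. The sum of 6 sebaceous gland markers was 2.94 to 21.1 CPM in Arf6-null and 3.58 to 10.6 CPM in wild-type tumors. That of 6 neutrophil markers was 32.4 to 129 and 16.0 to 119 CPM. Of the keratinocyte, sebaceous, neutrophil, macrophage and endothelial lists 2, 3, 6, 10 and 7 genes were tested. By edgeR's adjusted p 0 were called in each, against 1.15% of all tested genes. At an unadjusted p under 0.05, 2 endothelial markers were lower (12.4% of all tested genes). No member of the other 4 lists was past it in either direction. DESeq2 called 1 endothelial marker lower and none of the other lists, against 6.63% of all genes in the lower direction.

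Per kilobase of exon, the order of the mean levels in Arf6-null tumors was Fabp4 (6.03 CPM per kb), Lipe (3.41), Cfd (1.98), Pparg (1.19), Adipoq (0.238), Cidec (0.185), Plin4 (0.142), Retn (0.109), Plin1 (0.0129) and Lep (0.0038). In wild-type tumors it was Cfd (16.1 CPM per kb), Fabp4 (8.06), Lipe (3.55), Plin4 (1.70), Adipoq (1.44), Pparg (1.31), Cidec (1.28), Retn (0.351), Plin1 (0.186) and Lep (0.0781). Among the 9 pairs of neighbours in each order, only Pparg and Adipoq in Arf6-null tumors differed by more than the larger of their SDs. Apart from that pair, the order of neighbours therefore rests on differences within the spread between tumors. For Fabp4 the annotated exons cover the whole gene, 4489 bases, which lowers its level per kilobase.

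Of 140 genes of the related lists 114 were tested, 1 rose and 2 fell (Agpat2, Car3 and Pvalb), against 1.15% of all tested genes called. Of 18 genes of fatty acid and triglyceride synthesis 16 were tested, 1 rose and none fell. The gene that rose in edgeR was Agpat2, an enzyme of triglyceride and phospholipid assembly, at 99.9 ± 27.9 CPM in Arf6-null and 44.4 ± 7.03 CPM in wild-type tumors (SD, n = 6 each). Its log2 fold change was 1.17 (SE 0.20, adjusted p = 0.0263 in edgeR). Its lowest Arf6-null tumor, at 49.2 CPM, was below the highest wild-type tumor, at 54.9 CPM, and it was called in 5 of the 12 fits that leave out 1 library. Acacb, an acetyl-CoA carboxylase of muscle and fat mitochondria, was at 1.97 ± 1.0 and 9.69 ± 13.0 CPM in Arf6-null and wild-type tumors. Its adjusted p was 0.102 in edgeR and 0.0131 in DESeq2. Srebf1, a regulator of lipid synthesis, was at 225 ± 45.1 and 155 ± 44.5 CPM (edgeR adjusted p = 0.131).

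Among 22 other white adipocyte genes 18 were tested, none rose and 1 fell. Car3, a carbonic anhydrase abundant in fat and in slow muscle, was at 0.858 to 4.26 CPM in Arf6-null tumors, against 4.06 and 0.761 CPM in wild-type replicates 1 and 2 and 44.5 to 136 CPM in replicates 3 to 6. Its log2 fold change of -4.88 had an SE of 1.02 (adjusted p = 0.0448 in edgeR), it was called in 3 of the 12 fits that leave out 1 library, and its fold change was -1.28 with the muscle covariate (adjusted p = 0.654). Car3 drew the same line between wild-type replicates 3 to 6 and the other tumors as Adipoq and Cfd. The summed muscle markers drew it too, at 218 to 3079 CPM in replicates 3 to 6 and 5.12 to 70.0 CPM in the other tumors. Among replicates 3 to 6, Car3 was highest in replicate 3, at 136 CPM, where Adipoq was lowest, at 1.79 CPM. Mest, whose level in fat follows expansion of the tissue, was at 8.55 ± 8.59 and 181 ± 159 CPM in Arf6-null and wild-type tumors (edgeR adjusted p = 0.0566). Its wild-type levels were 289, 26.2, 381, 289.7, 5.86 and 92.2 CPM in replicates 1 to 6, an order unlike that of the adipocyte genes. Adipor2, an adiponectin receptor, was at 282 ± 144 and 117 ± 38.9 CPM (edgeR adjusted p = 0.0742).

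No gene passed among 7 tested of 11 other lipid droplet genes, 9 of 13 of lipolysis and lipid uptake, 14 of 14 adipogenic transcription factors, 4 of 10 of brown and beige fat or 11 of 11 of adipocyte precursors. At an unadjusted p under 0.05 these lists had 2, 0, 3, 0 and 1 genes higher and 0, 3, 4, 0 and 3 lower in Arf6-null tumors, against 11% and 12.4% of all tested genes. DESeq2, which also covered genes below edgeR's filter, called 2, 0, 1, 0 and 0 higher and 2, 1, 2, 1 and 2 lower, against 5.21% and 6.63%. Their median log2 fold changes were 0.35, -0.70, -0.22, -0.75 and -0.74. Abhd5, the activator of the lipase that opens fat breakdown, was at 77.0 ± 10.9 CPM in Arf6-null and 56.4 ± 9.72 CPM in wild-type tumors (edgeR adjusted p = 0.0806). Mgll, which completes that breakdown, was at 6.75 ± 4.38 and 18.6 ± 10.2 CPM (edgeR adjusted p = 0.115). Plin3, a droplet coat protein of many cell types, was at 143 ± 15.6 and 109 ± 20.4 CPM (edgeR adjusted p = 0.103), and Gpd1, which makes the glycerol backbone of fat, at 1.49 ± 0.727 and 3.98 ± 2.59 CPM (edgeR adjusted p = 0.161). Wnt10b, a signal that holds precursors back from becoming adipocytes, was at 1.0 ± 0.870 and 8.29 ± 8.63 CPM (edgeR adjusted p = 0.0803). Zfp423, a factor of adipocyte precursors, was at 0.661 ± 0.445 and 2.06 ± 0.633 CPM, and Klf4, which acts early in adipogenesis, at 124 ± 27.6 and 63.1 ± 20.6 CPM (edgeR adjusted p = 0.0595 for both).

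Of the brown and beige fat genes, Prdm16, a regulator of brown fat identity that other cells also express, was at 24.1 ± 3.38 CPM in Arf6-null and 20.02 ± 5.36 CPM in wild-type tumors, Dio2, which activates thyroid hormone, at 5.56 ± 2.58 and 11.9 ± 14.8 CPM, and Ppargc1a, a coactivator of mitochondrial genes, at 1.01 ± 1.18 and 2.55 ± 1.62 CPM. Ucp1, the uncoupling protein, had 5 counts over the Arf6-null and 4 over the wild-type libraries, Cidea 7 and 9, and Elovl3 13 and 5. Cox8b, which muscle also expresses, had 22 and 466. In the droplet list Plin5 had 3 and 57 counts and Fitm1 13 and 236, and both are also genes of oxidative or skeletal muscle. Ucp1, Cidea, Elovl3, Cox8b, Plin5 and Fitm1 did not reach edgeR's filter. DESeq2 called Cox8b, Plin5 and Fitm1 lower in Arf6-null tumors (adjusted p = 0.00014, 0.00313 and 0.000263 in DESeq2).

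The 10 tested genes outside the list whose log2 CPM followed the mean of the tested members most closely over the 12 tumors were Amy1, Ankrd16, Syt4, Arhgap20, Arhgef18, Prtn3, Gba2, Pde3a, Sult5a1 and the antisense RNA Tmem147os, with Pearson r of 0.943 to 0.906. The r of a member with that mean, of which it is a part if tested, was 0.975 for Cfd and Cidec, 0.911 for Adipoq, 0.907 for Retn, 0.885 for Plin4, 0.862 for Plin1 and 0.736 to 0.587 for Lipe, Pparg, Lep and Fabp4. None of the 10 genes belongs to a list used here, and none passed the test (edgeR adjusted p of 0.0759 to 0.293). Prtn3, a neutrophil protease gene, ends 7679 bases before the start of Cfd on chromosome 10. It was at 1.77 ± 0.711 CPM in Arf6-null and 3.96 ± 2.36 CPM in wild-type tumors.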

How the data were processed

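A Direct-zol kit and stranded TruSeq mRNA libraries were used, per the labels' protocols. The submitters' processing notes name STAR 2.7.3a, featureCounts 1.6.3 and DESeq2 1.26.0 and the build GRCm38 (mm10) (strand setting and annotation release not given in the sources used here). Raw counts of reads per gene were deposited by the authors. Columns were matched to samples by library name, groups by the genotype label, and symbols by GENCODE M21 (55141 of 55487 identifiers; exon lengths are unions of exons).

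Genotypes were compared on all 12 libraries with edgeR 4.0.16 (R 4.3.3; filterByExpr with a minimum of 10 counts, trimmed mean of M values, robust quasi-likelihood test), with Benjamini-Hochberg adjustment over 16225 genes and a threshold of 0.05. A positive log2 fold change means higher in Arf6-null tumors, SEs derive from the F statistic, and log2 CPM used a prior count of 2. Plin1, Lep and Retn, below the filter, come from the same fit without it (33373 genes). Alternatives were 2 other scalings, DESeq2 1.42.0, limma-voom (limma 3.58.1), other filters, counts thinned to 21007954 per library, muscle or Y-linked covariates and left-out libraries. Functions were tested on simulated data. Depth limits Lep, Plin1 and Retn most.

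Members and lists were chosen with earlier results of these data known. All members were named, then from each list those past the threshold and others by smallest p, up to 3 a list (for lists of other cell types only those past the threshold are given in the text), then the 10 genes most alike, leaving out Gm, Rik, ribosomal and microRNA symbols. Cox8b, Plin5, Fitm1, Ucp1, Cidea and Elovl3 were named after their values were seen.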

Additional observations from a re-analysis of the deposited data

Results flagged for a closer look

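For 48 sets of 6 values, the log2 CPM of each member and the log2 of each list's summed CPM plus 1 within a genotype, Dixon's gap ratio marked 2 with a tumor set apart, where chance gives about 1 in 20. Arf6-null replicate 6 had a keratinocyte sum of 4.48, and the remaining Arf6-null tumors had 1.96 to 2.50. For the other lipid droplet genes the sum was 10.6 in the second wild-type tumor, and the remaining wild-type tumors had 8.77 to 9.11.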

How the results depend on the processing

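The log2 fold changes of Adipoq, Plin1, Plin4, Cfd, Cidec and Lep were negative under every alternative that could be fitted for them. With DESeq2 5 of all 10 adipocyte genes were called, and leaving out single libraries gave 0 to 1 of those past the filter. In the 2 fits that gave 1, without Arf6-null replicate 6 and without wild-type replicate 2, Plin1 was called as well when no filter was used. The number called over all tested genes, 186, was 2241 with DESeq2, 931 with limma-voom, 30 with Y-linked expression as a covariate, 14 with the muscle covariate, 35 without wild-type replicates 3, 4 and 5, and 25 to 766 when single libraries were left out. Among genes of the related lists 3 of 114 tested were called, and 30 with DESeq2, 9 with limma-voom, 1 without a filter, 1 at 10 CPM in 6 libraries, 0 with either covariate or without those 3 libraries, and 0 to 21 with single libraries left out. The median log2 fold change of the adipocyte genes was -1.04 with the muscle covariate and -0.29 at 10 CPM in 6 libraries, where only Fabp4 and Lipe remained. It was -1.31 without wild-type replicates 3, 4 and 5 and -1.68 on thinned counts, where Adipoq did not reach the filter, and lay between -3.10 and -2.22 with single libraries left out.

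Signs turned for 4 genes, none of them called. Pparg was at 0.43 with the muscle covariate, 0.28 without wild-type replicates 3, 4 and 5, 0.18 with limma-voom and -0.35 to 0.052 with single libraries left out. Lipe was at 0.23 with the muscle covariate, 0.11 with Y-linked expression, 0.13 without those 3 libraries, 0.10 with limma-voom and -0.19 to 0.11 with single libraries left out. Fabp4 ranged from -0.96 to 0.023 with single libraries left out, and Retn was at 0.052 without wild-type replicates 3, 4 and 5. The cause was not tested. No paired analysis was possible because the labels link no Arf6-null tumor with any wild-type tumor, although the design text calls them matched. Levels of a few counts, as for Lep, are limited by depth.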
